A study of Mus musculus with 5 samples.

Results

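The genes described here are the matrix and matrix receptor genes whose symbol names a collagen chain, a laminin chain, an integrin alpha or beta subunit, a nidogen or perlecan (Hspg2). Of 16422 genes tested, 81 met that rule, 43 collagen chains, 11 laminin chains, 24 integrin subunits, both nidogens and perlecan. Col21a1, Col26a1, Itgad and Itgax, also sought by name, were not analysed here. Basement membranes are thin sheets of laminin and collagen IV networks, joined by nidogens and the proteoglycan perlecan, on which cells rest through integrins. An integrin is a membrane receptor made of an alpha and a beta subunit, and laminins and collagens are trimers of gene-encoded chains. In the retina Müller glia, which reach from one face of the tissue to the other, rest their endfeet on the inner limiting membrane, a second basement membrane surrounds the vessels, and collagens II, V, IX and XI belong to the vitreous.

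The libraries are RNA of retinal nuclei from mice of the labelled genotype Aldhl1l-Cre/Ert2+; NuTRAP+, a tamoxifen-inducible Cre whose activity follows the Aldh1l1 promoter, with a Cre-dependent reporter that lets nuclei be tagged with biotin. All animals carried both alleles and had been given tamoxifen, so every library shares them, and the sources used here give no age, sex or interval after tamoxifen. Each sample was made from 2 retinae and carries an animal number, and from it whole-retina nuclei (Input, animals 40 and 55, n = 2) and streptavidin-captured nuclei (Positive, called Müller glia in the design text, animals 12, 40 and 55, n = 3) were sequenced. Per the labels' protocols, undissociated material consisting mostly of vessels was removed by a slow spin before the fractions were parted. The Aldh1l1 promoter is also active in astrocytes. Values are log2 and, since an Input library is exactly 0 in most genes, relative to an Input level of each gene, so they show differences between libraries but no level and no depth. The log2 difference of a gene is its Positive mean minus its Input mean, which is the log2 of its fold change. A lower value in bulk nuclei can mean fewer nuclei of a type or less RNA in each, which cannot be told apart.

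Of 22 Müller glia markers, 22 had higher means in Positive than in Input, their median log2 difference being 0.44, and in 18 of them both Input libraries lay under every Positive library (16.7% of all genes did so). The same held for 11 of 18 endothelial markers (median 0.51), 6 of 9 astrocyte markers (0.63), 7 of 11 markers of pigment epithelium and choroid (0.65) and 5 of 10 mural cell markers (0.23). Among 10 markers of fibroblasts and connective tissue the median was 0.57, but the libraries were spread, and 1 had all Positive values above both Input values. Microglial markers had a median of 0.25, rod markers 0.06, and amacrine and ganglion cell markers 0.10. These marker lists were drawn up with earlier results of these data known, so they are no independent check of the capture. The part of any of these cell types in the values below was not tested.

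The collagen genes lay mostly on the other side of 0 from those markers. Their median log2 difference was -0.47, and 36 of 43 chains had a lower mean in Positive than in Input, against 53.0% of all genes. In 23 of the 43 chains all 3 Positive libraries lay below both Input libraries, which 21.8% of all genes did. In 2, Col8a1 and Col8a2, all lay above, which 16.7% of all genes did. The 38 laminin, nidogen, perlecan and integrin genes had a median of -0.08, with 18 higher and 20 lower. Over all 81 genes the median was -0.22 and that of all genes tested was -0.02. Every Positive library lay below both Input libraries in 30 members (21.8% of all genes) and above in 10 (16.7% of all genes).

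None of these 81 differences passed limma's moderated test (a linear model per gene that shares its estimate of the spread across genes) over all 16422 genes at an adjusted p of 0.05: 0 were called higher and 0 lower (both 0% of all genes), the lowest adjusted p being 0.329 for Itga9. At an unadjusted p under 0.05, 5 members were higher (6.45% of all genes were) and 15 lower (7.76% of all genes were). The lower count was 25 when the animal entered as a fixed replicate block and 29 when it entered as a random one. The shares of all genes were 8.93% and 14.3%. Animal 12 has no Input library, so the log2 differences of the fixed block came from animals 40 and 55 alone. The higher count was 6 and 7, or 8.46% and 11.9% of all genes. The counts also moved with single libraries, as did the shares of all genes. The lower count was 29 without Positive 55 (10.9% of all genes), 7 without Positive 12 (4.87%) and 6 without Positive 40 (3.95%). With Input 40 left out it was 6 (3.76%), and with Input 55 left out it was 1 (1.75%). The higher count was 3 without Positive 12 (5.35%) and 2 without Input 40 (4.27%).

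**Figure D1:**
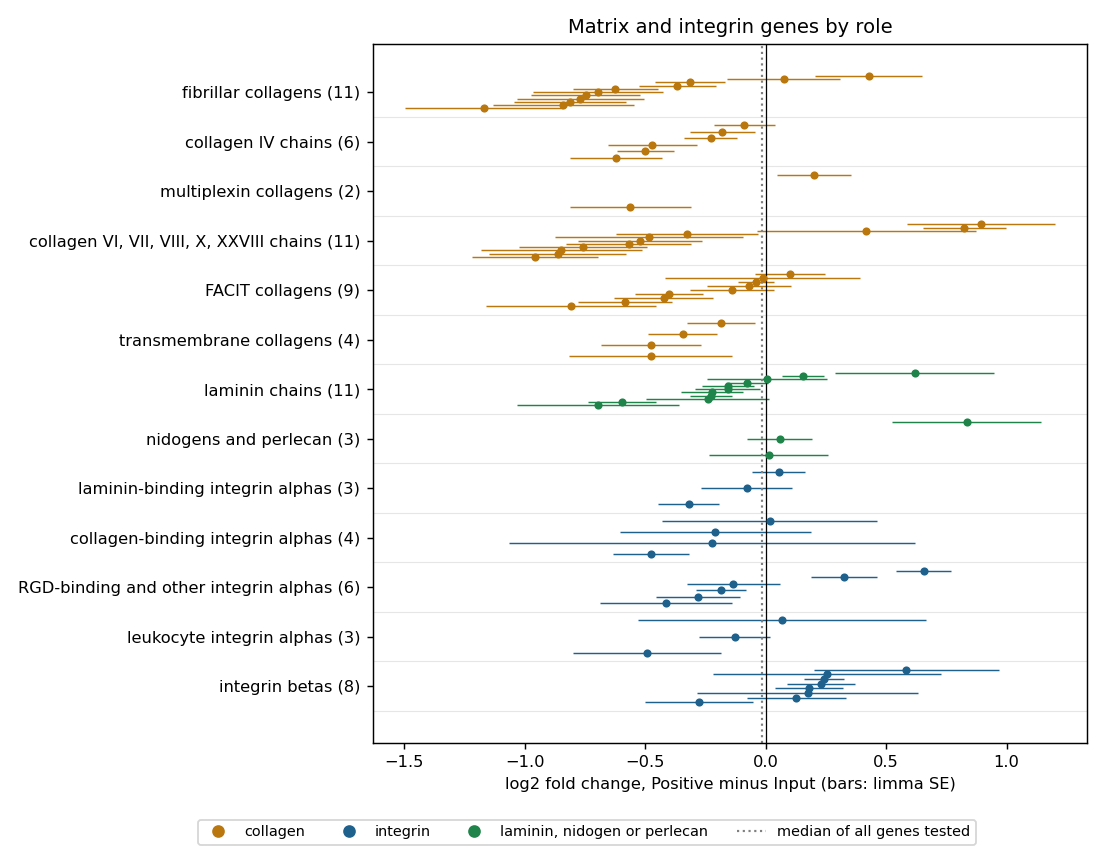
Log2 difference (fold change) of Positive minus Input for the 81 genes (points, bars show limma's SE), grouped by role, with the number of genes in brackets and the median of all genes as a dotted line. Most collagen points lie left of 0, led by Col24a1 at -1.17, and 7 of the 8 integrin beta points lie right of it.

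A feature of gene structure moved with the fold change in these libraries and has to stand beside the collagen values. Collagen genes are split into many short exons: the longest protein-coding transcript had a median of 48 exons in the 43 collagen genes, 29.5 in the other 38 members and 9 over the 14329 genes tested that have such a transcript in GENCODE M21. Across all of those genes the median log2 difference was 0.07 for transcripts of 1 to 5 exons, 0.01 for 6 to 10, -0.05 for 11 to 20, -0.12 for 21 to 40 and -0.22 for over 40. The share with all Positive libraries below both Input libraries went from 10.5% in the first class to 62.7% in the last. This order of the classes was seen within animal 40 (0.10 to -0.23), within animal 55 (0.03 to -0.20) and in Positive 12 against the mean Input (0.09 to -0.23).

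Among collagens of over 40 exons, 18 of 28 had all Positive libraries below both Input libraries (64.3%), which is close to the 62.7% of all genes of that class. Their median log2 difference, -0.47, was lower than the class median of -0.22. The 12 collagens of 21 to 40 exons had a median of -0.50, also lower than their class median of -0.12, and 11 of them had lower means. In 5 of these 12 (41.7%) all Positive libraries lay below both Input libraries, against 43.5% of the class. The 3 collagen genes of 1 to 5 exons were Col10a1 with 3 exons and Col8a1 and Col8a2 with 4 each, and all 3 had higher means in Positive. Over the 81 genes the log2 difference and the log2 exon number had a Pearson r of -0.58 and a Spearman rho of -0.50, and over the 14329 genes -0.21 and -0.28. These are descriptions across genes of the same 5 libraries, and genes are not independent replicates. Pearson r over the members was -0.26 for transcript GC content, -0.23 for transcript length and -0.06 for genomic span. Over the 43 collagens Spearman rho was -0.42 for transcript length, -0.44 for exon number and -0.11 for GC content. Pearson r was -0.42, -0.69 and -0.13. Over the other 38 members Spearman rho was -0.02, -0.31 and -0.34, and Pearson r was -0.015, -0.22 and -0.26.

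Each library was therefore also centred on the median of all genes in the same exon class, an alternative added after the data were seen. The collagen median was then -0.26, with 30 of 43 lower and 15 with all Positive libraries below both Input libraries, against 18.8% of all genes. For the other 38 members the median was then 0.05, with 21 higher and 17 lower. Of these 38, 11 had all Positive libraries above both Input libraries and 3 below, against 17.6% and 18.8% of all genes. The median over the 81 members was -0.07, with 47 lower against 50.2% of all genes, and 16 members had all Positive libraries above both Input libraries (17.6% of all genes) and 18 below. At an unadjusted p under 0.05 the counts were then 9 higher (6.8% of all genes) and 10 lower (6.43%). The part of exon number in any single value was not tested. Of the 81 genes 47 overlap another annotated gene, 32 of them one on the opposite strand, and the sources used here do not say whether reads were counted by strand.

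**Figure D2:**
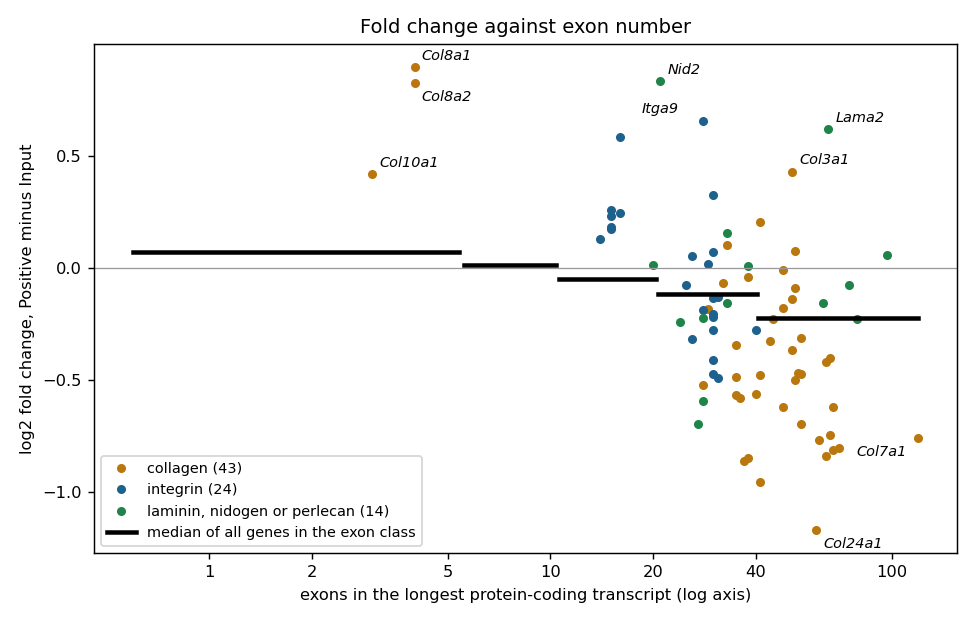
Log2 difference (fold change) of Positive minus Input against the number of exons of the longest protein-coding transcript (log axis) for the 81 genes, with the medians of all genes in 5 exon classes as black bars. The bars step down from 0.07 to -0.22, the 3 collagen genes with few exons lie above 0, and most collagens of over 40 exons lie below the bar of their class.

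Fibrillar collagens form the cross-striated fibrils of connective tissue and, in the eye, of the vitreous and sclera. In 9 of the 11 all Positive libraries lay below both Input libraries, and the median log2 difference was -0.70. All 11 have over 40 exons, and 62.7% of all genes of that class lay below in the same way (21.8% of all genes). After exon-class centring the median was -0.49, and 6 of the 11 had all Positive libraries below both Input libraries, against 18.8% of all genes. Col24a1, a minor fibrillar chain (Entrez gene 71355, mm10 chr3:145292472-145552005), had log2 values of -1.29, -1.41 and -0.47 in Positive 12, 40 and 55 and of -0.06 and 0.28 in Input 40 and 55. The groups did not overlap, and Positive 55 lay nearest to Input. Its log2 difference of -1.17 (SE 0.33, 2.25-fold lower; adjusted p = 0.331 in limma) was the lowest of the 81.

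Col11a1 and Col11a2, chains of the collagen that nucleates fibrils together with collagen V, also had Positive 55 nearest to Input. Col11a1 was at -0.93, -0.99 and -0.31 in Positive 12, 40 and 55 against 0.00 and 0.14 in Input 40 and 55, a log2 difference of -0.81 (SE 0.23). Col11a2 was at -1.08, -0.81 and -0.19 against 0.00 and 0.30, a log2 difference of -0.84 (SE 0.29). The 3 collagen V chains were also below Input in every Positive library, with log2 differences of -0.75 for Col5a1 (SE 0.23), -0.70 for Col5a2 (SE 0.27) and -0.62 for Col5a3 (SE 0.18). Col27a1, a fibrillar chain known from cartilage, had -0.77 (SE 0.26).

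Col2a1, the main collagen of the vitreous, differed less, with -0.41, -0.20 and -0.03 in Positive 12, 40 and 55 and 0.00 and 0.20 in Input 40 and 55. Its groups lay side by side without overlap, and the log2 difference was -0.31 (SE 0.15; adjusted p = 0.388 in limma), or -0.11 after exon-class centring. Collagen I and III chains, typical of fibroblasts, did not move as one. Col1a1 had a log2 difference of -0.37 (SE 0.16), Col1a2 0.08 (SE 0.24) and Col3a1 0.43 (SE 0.22), the last 2 with overlapping groups, and Input 40 was the lowest library of both at -0.38 and -0.57. Of the 10 fibroblast markers 4 were lowest in Input 40, 3 in Positive 12 and 1 in each of the other libraries.

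Collagen IV makes the network of every basement membrane, in trimers of the alpha 1 and 2, the alpha 3, 4 and 5, or the alpha 5 and 6 chains. All 6 chains had lower means in Positive, with a median log2 difference of -0.35. The order followed the gene pairs: Col4a2 (-0.62, SE 0.19) and Col4a1 (-0.50, SE 0.12) were lowest, then Col4a5 (-0.47, SE 0.19) and Col4a6 (-0.23, SE 0.11), and Col4a4 (-0.18, SE 0.14) and Col4a3 (-0.09, SE 0.13) lay nearest to 0 with groups that overlapped. Differences between neighbours in this order were not tested. After exon-class centring Col4a1 was at -0.29, Col4a2 at -0.41, Col4a5 at -0.26 and Col4a6 at -0.02, while Col4a4 and Col4a3 were at 0.03 and 0.12.

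Col4a1 (Entrez gene 12826, mm10 chr8:11198423-11312826) was at -0.56, -0.57 and -0.28 in Positive 12, 40 and 55 and at 0.00 and 0.06 in Input 40 and 55. Its neighbour Col4a2 (Entrez gene 12827, mm10 chr8:11312829-11449287) was at -0.77, -0.60 and -0.21 against 0.00 and 0.19. Every Positive library lay below both Input libraries in both genes, with Positive 55 the nearest. Endothelial cells and pericytes lay down most of this pair around vessels. In the same libraries 16 of 18 endothelial markers and 8 of 10 mural markers had higher means in Positive. Of all genes 53.0% had lower means. The groups did not overlap, with Positive higher, in 11 of the 18 and 5 of the 10 (16.7% of all genes). The part of these cell types in the Col4a1 and Col4a2 values was not tested.

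The 3 pairs of collagen IV genes stand head to head on their chromosomes. In the deposited table the starts of Col4a1 and Col4a2 lie 3 bases apart on chromosome 8, those of Col4a3 and Col4a4 72 bases apart on chromosome 1, and those of Col4a5 and Col4a6 1343 bases apart on the X chromosome. The promoter windows of Col4a1 and Col4a2 are shown because 1 stretch of DNA serves both genes, and those of Col8a1 and Col8a2, which also code for the chains of 1 collagen, because these were the collagen genes with higher values. Each holds 250 bases before the RefSeq start and 50 after it (GRCm38.p6), on the strand of the gene. Capitals mark the motifs CCAAT and GGGCGG read on either strand. TATAAA was searched as well and was in none of the 4 windows.
Col4a1, minus strand, chr8:11312777-11313076: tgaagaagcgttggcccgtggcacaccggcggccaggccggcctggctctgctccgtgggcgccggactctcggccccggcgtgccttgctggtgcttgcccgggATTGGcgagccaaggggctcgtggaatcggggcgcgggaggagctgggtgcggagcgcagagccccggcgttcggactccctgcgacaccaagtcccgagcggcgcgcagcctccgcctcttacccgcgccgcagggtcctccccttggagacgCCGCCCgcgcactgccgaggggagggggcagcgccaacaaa
Col4a2, plus strand, chr8:11312555-11312854: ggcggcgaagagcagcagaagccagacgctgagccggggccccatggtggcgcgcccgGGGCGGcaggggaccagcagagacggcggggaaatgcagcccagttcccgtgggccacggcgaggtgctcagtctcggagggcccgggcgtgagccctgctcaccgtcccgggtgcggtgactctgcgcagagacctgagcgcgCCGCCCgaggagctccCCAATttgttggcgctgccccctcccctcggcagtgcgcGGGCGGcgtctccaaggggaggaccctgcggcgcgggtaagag
Col8a1, minus strand, chr16:57754688-57754987: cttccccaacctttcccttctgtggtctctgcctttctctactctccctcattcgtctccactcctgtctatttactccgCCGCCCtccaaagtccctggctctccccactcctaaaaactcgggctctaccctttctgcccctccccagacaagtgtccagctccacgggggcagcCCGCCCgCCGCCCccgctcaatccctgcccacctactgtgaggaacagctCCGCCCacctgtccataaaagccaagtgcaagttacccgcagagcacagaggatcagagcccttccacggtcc
Col8a2, plus strand, chr4:126286544-126286843: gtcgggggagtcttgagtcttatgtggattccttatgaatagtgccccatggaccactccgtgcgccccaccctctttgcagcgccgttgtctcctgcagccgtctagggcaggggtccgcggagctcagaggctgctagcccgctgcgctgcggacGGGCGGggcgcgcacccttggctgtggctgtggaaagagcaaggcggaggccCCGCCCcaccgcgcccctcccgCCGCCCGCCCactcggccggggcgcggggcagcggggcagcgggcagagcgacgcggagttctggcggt

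The first pair of windows shares 78 bases, read on opposite strands, and the RefSeq starts of the 2 genes lie 21 bases apart. The pair differs from the Col8 windows in 1 of the motifs. CCAAT occurred once in each of the Col4a1 and Col4a2 windows and in neither Col8 window. GGGCGG occurred 1 time in Col4a1, 3 times in Col4a2 and 4 times each in Col8a1 and Col8a2, where 1 pair of matches in Col8a2 overlaps. The Col4a1 match and the last of the 3 in Col4a2 are the same bases, in the shared stretch. Of 32851 windows of RefSeq genes, 37.4% held CCAAT, 35.7% GGGCGG and 13.6% TATAAA. Of the 81 members 59 had a window in the table, some more than 1, and of these 65 windows 17 held CCAAT, 37 GGGCGG and 5 TATAAA. A match is only a string of letters and not a shown binding site.

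Collagen VIII forms hexagonal lattices in Descemet's membrane of the cornea and is made by vascular cells. Col8a1 (Entrez gene 12837, mm10 chr16:57624256-57754737) was at 0.88, 0.51 and 0.19 in Positive 12, 40 and 55 and at -0.73 and 0.00 in Input 40 and 55. Col8a2 (Entrez gene 329941, mm10 chr4:126286794-126314330) was at 0.93, 0.89 and 0.46 against -0.13 and 0.00. All Positive libraries were above both Input libraries in both genes, with log2 differences of 0.89 for Col8a1 (SE 0.31; adjusted p = 0.338 in limma) and 0.83 for Col8a2 (SE 0.17, 1.77-fold; adjusted p = 0.331). Within animal 40 the Col8a1 difference was 1.25 and within animal 55 it was 0.19, and those of Col8a2 were 1.02 and 0.46. After exon-class centring the log2 differences were 0.84 and 0.77. The third short chain, Col10a1, known from hypertrophic cartilage, had 0.42 (SE 0.45), with Input 40 at -1.50 and every other library between -0.46 and 0.00.

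Collagen VI builds beaded microfibrils close to basement membranes. Its chains were lower in Positive by their means, with Col6a5 at -0.96 (SE 0.26), Col6a6 at -0.86 (SE 0.28), Col6a4 at -0.85 (SE 0.33), Col6a1 at -0.57, Col6a2 at -0.52 and Col6a3 at -0.33. In the first 3, which lie side by side on chromosome 9, all Positive libraries were below both Input libraries, and in the others the groups overlapped. Col7a1, the chain of the anchoring fibrils under epithelia and the member with the most exons, 119, had -0.76 (SE 0.26), without overlap. Col28a1 had -0.49 (SE 0.39), with overlap.

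FACIT collagens sit on the surface of fibrils, and collagen IX does so in the vitreous. The 3 collagen IX genes were close to 0, with Col9a3 at 0.10 (SE 0.14), Col9a1 at -0.04 (SE 0.07) and Col9a2 at -0.07 (SE 0.17), all with overlapping groups. Col9a1 varied little, between -0.04 and 0.07 over the 5 libraries. Col12a1 (-0.40, SE 0.14), Col20a1 (-0.58, SE 0.19) and Col16a1 (-0.81, SE 0.35) had all Positive libraries below both Input libraries. Col19a1 (-0.14), Col22a1 (-0.42) and Col14a1 (-0.01, SE 0.40) had groups that overlapped. After exon-class centring the median of these 9 genes was 0.04.

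The transmembrane collagens are shed or anchored on cell surfaces. Their 4 measured genes all had lower means in Positive, Col13a1 at -0.48 (SE 0.34), the hemidesmosome chain Col17a1 at -0.48 (SE 0.21), Col25a1, first known from neurons, at -0.34 (SE 0.14) and Col23a1 at -0.19 (SE 0.14). In Col17a1 and Col25a1 the groups did not overlap. The multiplexins, whose ends can be cut into fragments such as endostatin, were on opposite sides of 0. Col18a1, the source of endostatin, was at 0.36, 0.17 and 0.52 in Positive 12, 40 and 55 and at 0.00 and 0.30 in Input, a log2 difference of 0.20 (SE 0.15) with overlap. Col15a1, its relative in vascular and muscle basement membranes, had -0.56 (SE 0.25) with every Positive library below both Input libraries.

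**Figure D3:**
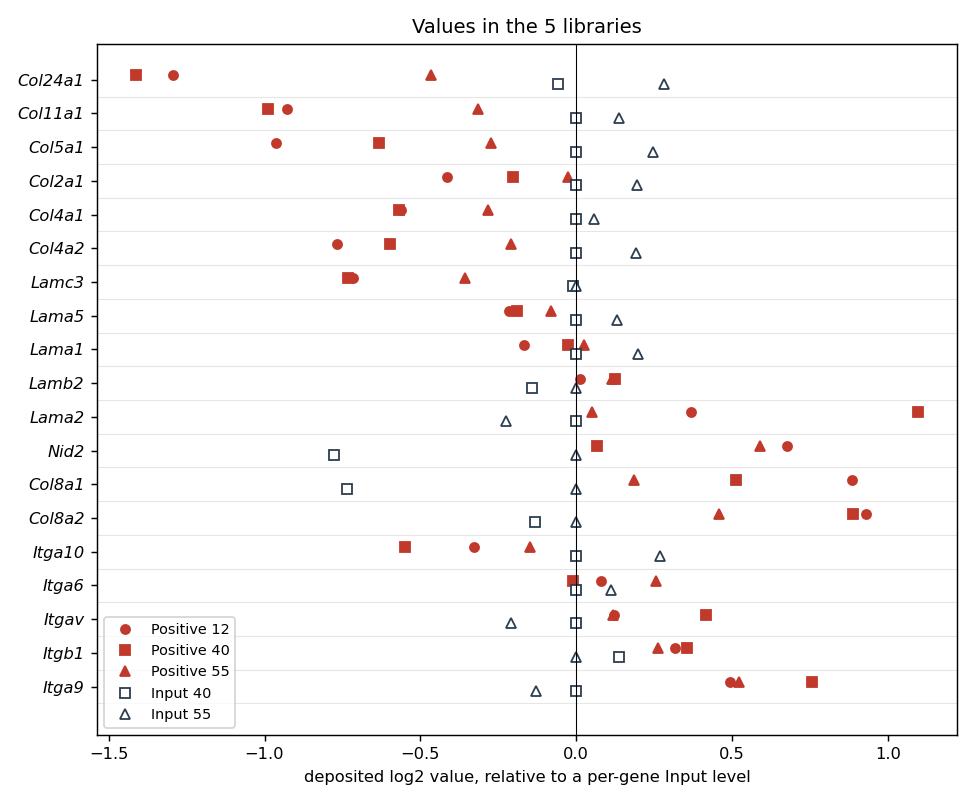
Deposited log2 values of 19 of the genes in each library (filled, Positive; open, Input; the marker shape gives the animal). Col24a1 has its Positive libraries between -1.41 and -0.47, Itga9 has them between 0.49 and 0.76, and Positive 55 lies nearest to Input in most of the lower genes.

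Laminin chains had a median log2 difference of -0.16, with 3 of 11 higher and 8 lower, where 53.0% of all genes were lower. After exon-class centring the laminin median was -0.02, with 5 higher and 6 lower, against 50.2% of all genes lower. Lama1, the alpha chain of the embryonic laminin that is also a part of the inner limiting membrane, was at -0.17, -0.03 and 0.02 in Positive 12, 40 and 55 and at 0.00 and 0.20 in Input 40 and 55. These values overlapped and the log2 difference was -0.16 (SE 0.11; adjusted p = 0.506 in limma), or 0.05 after exon-class centring. Lama5, an alpha chain of vessels and of the inner limiting membrane, had -0.23 (SE 0.09) without overlap, and Lama4, the other vascular alpha chain, 0.01 (SE 0.25). Lama2, the alpha chain of muscle and glial basement membranes, was at 0.37, 1.10 and 0.05 against 0.00 and -0.23. Its groups did not overlap, but Positive 40 lay far above the other Positive libraries, and the log2 difference was 0.62 (SE 0.33; adjusted p = 0.420).

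Among the beta chains Lamb2, which is made in the retina and lies near photoreceptors and in the inner limiting membrane, was at 0.01, 0.12 and 0.12 in Positive 12, 40 and 55 and at -0.14 and 0.00 in Input. All Positive libraries were above both Input libraries by a small margin (log2 difference 0.16, SE 0.09; adjusted p = 0.437 in limma). Lamb1 had -0.16 (SE 0.14) and Lamc1, the gamma chain shared by most laminins, -0.22 (SE 0.13), both with overlap. Lamc3, a gamma chain known from the retina and brain, was at -0.72, -0.73 and -0.36 in Positive against -0.01 and 0.00 in Input. All Positive values lay below both Input values, Positive 55 being the nearest, with a log2 difference of -0.60 (SE 0.14, 1.51-fold lower; unadjusted p = 0.00932 and adjusted p = 0.331 in limma) and -0.48 after exon-class centring. Lamb3, a beta chain of epithelial laminin, had -0.70 (SE 0.34) without overlap, and Lama3, an epithelial alpha chain, had -0.08 (SE 0.09) with overlap.

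The linkers of the 2 networks were higher or near 0. Nid2 (nidogen-2; Entrez gene 18074, mm10 chr14:19751257-19811787) was at 0.68, 0.07 and 0.59 in Positive 12, 40 and 55 and at -0.78 and 0.00 in Input 40 and 55. Both Input libraries lay under every Positive one, although Positive 40 cleared Input 55 by only 0.07, and the log2 difference was 0.83 (SE 0.31; adjusted p = 0.348 in limma). Within animals 40 and 55 the difference was 0.85 and 0.59. Nid1 (0.01, SE 0.25) and perlecan, Hspg2 (0.06, SE 0.13), had overlapping groups. Hspg2 has 97 exons, and after exon-class centring it was at 0.26 (SE 0.10), the median of its class before centring being -0.22.

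**Figure D4:**
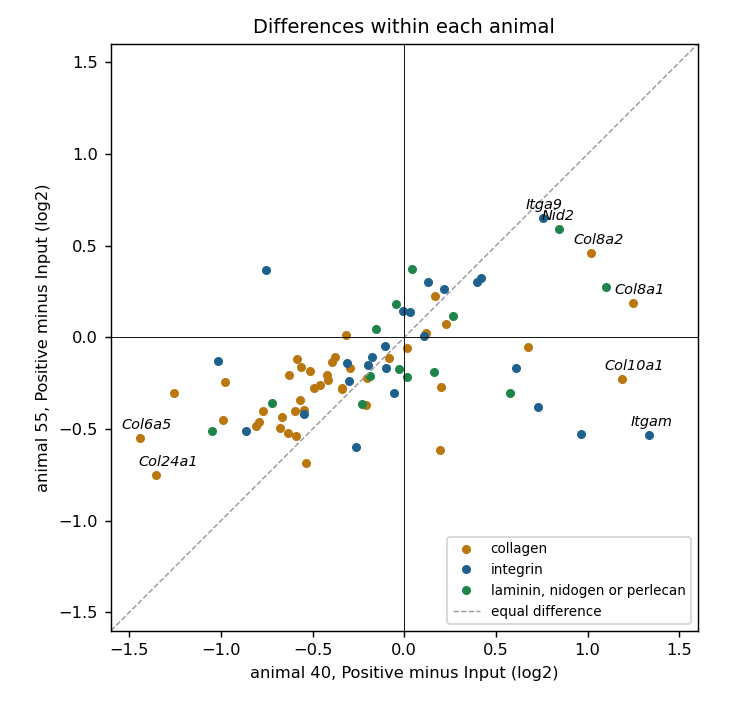
Difference of Positive minus Input (log2) within animal 40 (x axis) and within animal 55 (y axis) for the 81 genes, with the line of equal difference. Of the 43 collagens 32 lie in the lower left quadrant, and Itga9, Nid2 and Col8a2 lie in the upper right.

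The 2 animals with both fractions can be read against each other, since their Input libraries are separate. Of the 43 collagen genes 32 (74.4%) were lower in Positive within both animals, 5 (11.6%) were higher within both and 6 differed in sign. Of all genes 38.4% were lower within both and 31.7% were higher within both. The collagen median was -0.46 within animal 40 and -0.26 within animal 55, and it was -0.59 in Positive 12 against the mean Input. Differences within animal 40 were larger in size in 35 of the 43, and in 9976 of all 16422 genes. In Positive 12, 40 and 55 the median collagen value was -0.57, -0.50 and -0.14, and in Input 40 and 55 it was 0.00 and 0.14.

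Integrin beta subunits, which pair with the alphas and carry the signal inward, were mostly higher by their means. Of the 8 genes 7 had a positive log2 difference, with a median of 0.21. Only in Itgb1, Itgb2 and Itgb7 did all Positive libraries lie above both Input libraries, as in 16.7% of all genes. The median was 0.31 within animal 40 but -0.05 within animal 55. Within both animals 4 genes were higher and 1 was lower, and 3 differed in sign, while 31.7% of all genes were higher within both. Itgb1, the partner of most matrix-binding alphas (Entrez gene 16412, mm10 chr8:128685654-128733579), was at 0.32, 0.35 and 0.26 in Positive 12, 40 and 55 and at 0.14 and 0.00 in Input 40 and 55. Its Positive values were close together and above both Input values, with a log2 difference of 0.24 (SE 0.08, 1.18-fold; unadjusted p = 0.0353 and adjusted p = 0.339 in limma), of 0.22 within animal 40 and of 0.26 within animal 55.

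Itgb2, the leukocyte beta chain, had 0.58 (SE 0.39) and rested on Positive 12, at 1.32 where Positive 40 and 55 were at 0.13 and 0.30. Microglial markers, which share its cell type, had medians of 0.14, 0.14 and 0.00 in Positive 12, 40 and 55, and 7 of the 16 were highest in Positive 12. Their part in the Itgb2 value was not tested. The partners of alpha V had 0.23 for Itgb5 (SE 0.14), 0.17 for Itgb3 (SE 0.46), 0.26 for Itgb6 (SE 0.47) and 0.13 for Itgb8 (SE 0.21), with overlap in each, and Itgb7, another leukocyte chain, had 0.18 (SE 0.14). Itgb4, the hemidesmosome beta chain, was the 1 with a negative value, at -0.28 (SE 0.22). It has 40 exons and the other 7 have 14 to 16.

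Among alpha subunits Itga9, whose product pairs with beta 1 and binds tenascin and other matrix ligands (Entrez gene 104099, mm10 chr9:118606709-118901003), stood highest. It was at 0.49, 0.76 and 0.52 in Positive 12, 40 and 55 and at 0.00 and -0.13 in Input 40 and 55. The gap between the groups was wider than the range within either, and the log2 difference was 0.66 (SE 0.12, 1.58-fold; unadjusted p = 0.00271 and adjusted p = 0.329 in limma), the lowest p of the 81 genes. Within animals 40 and 55 it was 0.76 and 0.65. Itgav, the alpha V chain that binds vitronectin and latent TGF-beta, was at 0.12, 0.42 and 0.12 against 0.00 and -0.21, a log2 difference of 0.32 (SE 0.14; adjusted p = 0.363) without overlap.

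The other alphas of this group, which bind fibronectin, fibrinogen or VCAM-1, had negative values. Itga4 had -0.19 (SE 0.10), without overlap, while Itga8 (-0.13), Itga2b (-0.28, SE 0.17) and Itga5 (-0.41, SE 0.27) had groups that overlapped. Laminin-binding alphas were Itga6, the main partner of beta 1 on laminin, at 0.05 (SE 0.11), Itga7 at -0.08 (SE 0.19), and Itga3 at -0.32 (SE 0.13), the last without overlap. Itga6 was at 0.08, -0.01 and 0.26 in Positive and 0.00 and 0.11 in Input, so its groups could not be parted.

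Collagen-binding alphas had Itga10 lowest, at -0.33, -0.55 and -0.15 in Positive 12, 40 and 55 and 0.00 and 0.27 in Input, a log2 difference of -0.48 (SE 0.16; adjusted p = 0.336 in limma) without overlap. Itga1 (0.02, SE 0.45), Itga11 (-0.21, SE 0.40) and Itga2 (-0.22, SE 0.84) varied more between libraries than between groups. Itga2 was the 1 member of 81 that had met the authors' filter in just 1 condition. The leukocyte alphas had -0.49 for Itgae (SE 0.31, without overlap), -0.13 for Itgal (SE 0.15) and 0.07 for Itgam (SE 0.60), the last with Positive 12 at -1.41 and Input 40 at -1.64.

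**Figure D5:**
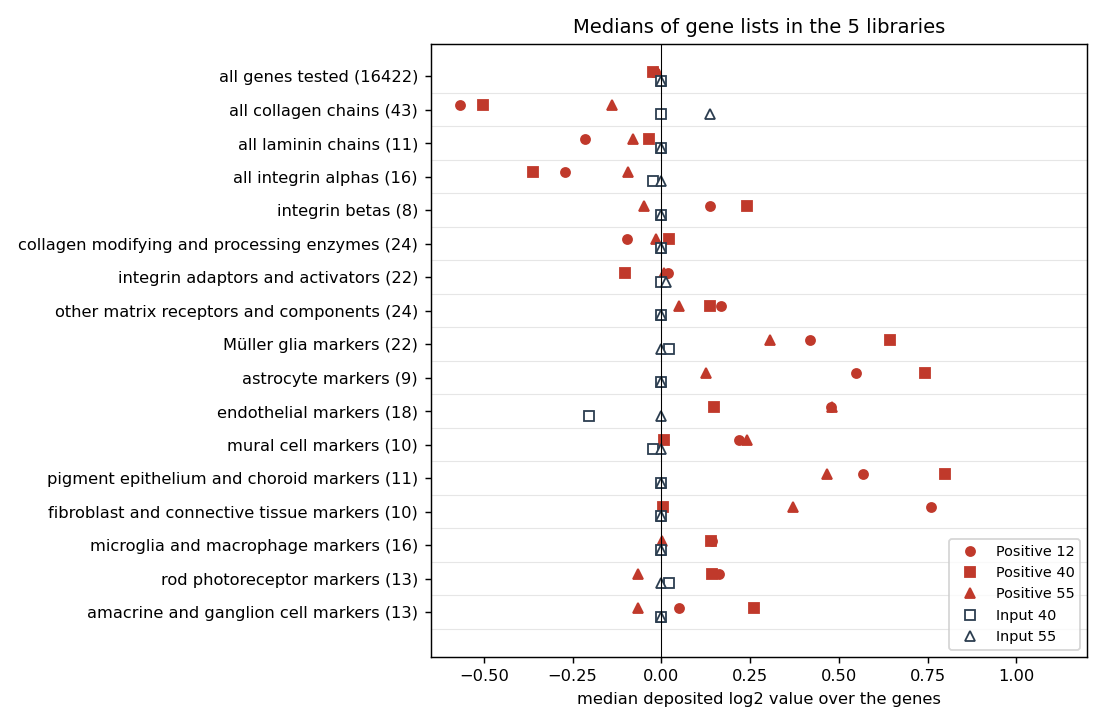
Median deposited log2 value of gene lists in each library (filled, Positive; open, Input; marker shape, animal), with the number of genes in brackets. Collagen medians in Positive run from -0.57 to -0.14, while Müller glia markers run from 0.31 to 0.65 and markers of the pigment epithelium from 0.47 to 0.80.

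Genes that make collagen or read the matrix without being members were described from lists drawn up with earlier results of these data known. Of 24 collagen-modifying and processing genes 11 were higher and 13 lower (median -0.03), and 0 passed limma's test. Of all genes 53.0% were lower. After exon-class centring 15 of the 24 were higher and 9 lower (median 0.06), against 50.2% of all genes lower. Serpinh1, the collagen chaperone HSP47, was at 0.84, 0.91 and 0.89 in Positive 12, 40 and 55 and at 0.00 and 0.27 in Input. All 3 Positive values lay close together and above Input, with a log2 difference of 0.74 (SE 0.11; unadjusted p = 0.00107 and adjusted p = 0.302 in limma), opposite in sign to the collagen median. Adamts14, a procollagen N-proteinase, had 0.58 (SE 0.24), the prolyl hydroxylase subunit P4ha2 -0.36 (SE 0.17) and the crosslinking enzyme Loxl4 -0.44 (SE 0.31).

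Of 22 integrin adaptors and activators 8 were higher and 14 lower (median -0.02), with 0 called, where 53.0% of all genes were lower. After exon-class centring 14 of the 22 were higher and 8 lower (median 0.05). Fermt1, the kindlin-1 gene, was at -1.87, -1.70 and -2.01 in Positive 12, 40 and 55 and at -0.55 and 0.00 in Input, a log2 difference of -1.59 (SE 0.20; unadjusted p = 0.000579 and adjusted p = 0.267 in limma). The Positive values lay close together and far below both Input values, but the gene had met the authors' filter in just 1 condition. Fermt3, the kindlin of blood cells, had -0.41 (SE 0.18), Tns3, which encodes tensin-3, 0.55 (SE 0.12), and the focal adhesion kinase relative Ptk2b 0.40 (SE 0.18).

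Of 24 other matrix receptors and basement membrane components 16 were higher and 8 lower (median 0.12), with 0 called, and 10 had all Positive libraries above both Input libraries (16.7% of all genes) and 3 below (21.8%). Ddr2, a receptor for fibrillar collagen, had 0.90 (SE 0.21), and Bcam, a receptor for laminin alpha 5, 0.84 (SE 0.15). Agrn, which encodes agrin and links laminin to dystroglycan, had -0.48 (SE 0.18), and fibronectin, Fn1, -0.25 (SE 0.10).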

How the data were processed

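Retinal nuclear RNA was sequenced from 3 Positive and 2 Input libraries. The authors deposited 1 table of log2 values per gene with mm10 coordinates, and the submitters' processing notes name DESeq as the authors' tool; an aligner and a counting mode were not given in the sources used here. Input 40 is exactly 0 in 8851 genes and Input 55 in 7182, so the deposited log2 values are relative to a per-gene Input level, and counts and depth are unknown.

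One row was kept per symbol (16422 genes of 16423 rows). Positive and Input were compared with limma 3.58.1 in R 4.3.3, without a mean-variance trend, two-sided, with Benjamini-Hochberg adjustment over all genes, a threshold of 0.05 and 3 residual degrees of freedom. An exact permutation of 3 against 2 libraries cannot go below p = 0.1. The script was tested on simulated data.

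The animal numbers pair Positive with Input in animals 40 and 55, since both fractions come from the same animal, and deviations from the group means correlated across genes at 0.17 and 0.20. Exon numbers came from the longest protein-coding GENCODE M21 transcript and promoter windows from RefSeq (GRCm38.p6).

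The members, the gene lists and the rule for named genes were chosen with earlier results of these data known. The rule named fixed basement membrane genes, the 2 highest and 2 lowest of each role group and pathway list, members with an unadjusted p under 0.05 and the head-to-head pairs; the remaining members were added after their values were seen. Alternatives covered the animal block, the variance prior, normalization, the authors' filter, duplicate symbols, each library left out and, added after the data were seen, exon-class centring. The values of 1 member are not reported here, though it is counted in the groups.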

Additional observations from a re-analysis of the deposited data

How the results depend on the processing

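With 5 libraries and no counts, small differences could not be resolved, and no member was called by limma under any of 14 alternatives. Of 839 alternative values for 60 named members, 798 kept their sign and 41, in 19 genes, did not. Over all 81 members the sign turned in at least 1 alternative in 26. The mean-variance trend, the robust variance prior, the authors' filter and keeping all rows leave a gene's log2 difference as it was. Under those settings no sign could turn, so the 798 is no measure of stability. The fixed block and leaving out Positive 12 gave the same log2 differences. With a fixed replicate block for the animal 25 members were lower at an unadjusted p under 0.05 in limma (8.93% of all genes). With a random replicate block 29 were (14.3% of all genes). The lowest adjusted p of a member was 0.287 and 0.0987, so the pairing changed no adjusted call among the members. Over all genes 11 passed an adjusted p of 0.05 with the random block and 0 with the fixed block. Leaving out 1 library in turn gave 1 to 29 lower and 2 to 6 higher, 10 to 18 members with all Positive above both Input and 32 to 51 below, where the shares of all genes were 20.6% to 27.6% above and 26.0% to 36.1% below. Exon-class centring gave 9 higher (6.8% of all genes), 10 lower (6.43%), 16 above (17.6%), 18 below (18.8%) and a median of -0.0744. Quantile normalization gave 4 higher (4.32% of all genes), 18 lower (3.38%), 9 above (11.6%) and 24 below (15.2%). The causes were not tested.

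Signs turned with exon-class centring in Col14a1 (0.19), Col4a3 (0.12), Col4a4 (0.027), Col9a1 (0.0725), Itga7 (0.0333), Lama1 (0.0503), Col19a1 (0.07), Col9a2 (0.04) and Lama3 (0.13), and with quantile normalization in Col14a1 (0.068), Col18a1 (-0.0116), Col9a3 (-0.12) and Itgal (0.0374). Median centring put Col14a1 at 0.0051. The fixed block turned Col1a2 (-0.0346), Itga1 (-0.195) and Itga7 (0.0842), and the random block Itga1 (-0.0917) and Itga7 (0.0049). Leaving out 1 library gave ranges across 0 of -0.35 to 0.32 in Col14a1, -0.24 to 0.39 in Col1a2, -0.23 to 0.0528 in Col4a3, -0.0738 to 0.28 in Col9a3, -0.0393 to 0.14 in Hspg2, -0.20 to 0.45 in Itga1, -0.50 to 0.13 in Itga11, -0.96 to 0.52 in Itga2, -0.0194 to 0.11 in Itga6, -0.20 to 0.0842 in Itga7, -0.75 to 0.89 in Itgam, -0.0836 to 0.67 in Itgb6, -0.12 to 0.37 in Itgb8 and -0.30 to 0.32 in Nid1. Over all alternatives the other members whose sign turned ranged from -0.33 to 1.17 in Col10a1, -0.24 to 0.07 in Col19a1, -0.17 to 0.07 in Col9a2, -0.33 to 0.07 in Itga8, -0.23 to 0.53 in Itgb3, -0.13 to 0.13 in Lama3 and -0.20 to 0.21 in Lama4.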
